A study of Mus musculus with 36 samples.

Results

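The last 4 h of the night in the mouse brain clock region were examined by setting zeitgeber time (ZT) 0, the hour of lights-on by convention, against ZT 20. The labels give times as numbers and do not say whether ZT 0 tissue was taken before or after lights-on. The comparison held 12 of the 36 RNA sequencing libraries of the series, chosen by time point alone. There were 3 libraries each of chow at ZT 0, chow at ZT 20, high-fat diet at ZT 0 and high-fat diet at ZT 20. All came from adult C57BL/6J mice, with no genetic change given in the labels, after 10 weeks on either diet. The tissue was a dissected brain region enriched for the suprachiasmatic nucleus (SCN), which also holds neighbouring hypothalamus, vessels and glia. The labels name no separate animals behind the libraries, so every p-value measures the spread between these libraries. In such bulk samples, fewer cells of a type and less RNA per cell cannot be told apart.

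The SCN is the master pacemaker of mammals. Its neurons run a transcriptional loop in which CLOCK and BMAL1 switch on the Period and Cryptochrome genes, whose proteins then repress their own transcription. Light reaching the retina at dawn is relayed to the SCN and induces immediate early genes such as Fos, while adrenal glucocorticoids, which peak near activity onset in nocturnal rodents, reach cells throughout the brain and switch on genes such as Tsc22d3. The SCN itself is known to have few glucocorticoid receptors in adult rodents.

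Values are fragments per kilobase and 1000000 reads (FPKM), rescaled so that each library summed to 1000000, and differences are log2(value + 1) at ZT 0 minus ZT 20, with the standard error (SE). This scale understates the change of low genes. A gene was called when the adjusted p from limma, with Benjamini-Hochberg adjustment over 15211 rows and diet as a covariate, was under 0.05. Relative depth, read from the smallest steps of low values, ran from 0.889 to 1.38 at ZT 0 and from 0.914 to 1.26 at ZT 20. Absolute read numbers are unknown. Across rows, which are not independent, the median Pearson r between libraries of 1 group was 0.969. The SCN transcripts Avp, for vasopressin, and Vip, for vasoactive intestinal peptide, were detected in all 12 libraries, Avp between 528 and 3604 and Vip between 9.88 and 50.2.

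Several libraries stood apart. Albumin (Alb), made by hepatocytes, was at 1890, 111 and 10.02 in the chow ZT 0 libraries and at 9.67, 11.2 and 2.26 in those of chow ZT 20. Under high-fat diet Alb was at 1.59, 21.8 and 285 at ZT 0 and at 126, 37.5 and 4.01 at ZT 20. One ZT 0 library of each diet, chow replicate 1 and high-fat replicate 3, thus carried far more liver transcript than the others of its group, and counts are given below with and without both. A second difference was not limited to these libraries. The summed level of 15 meninges and fibroblast markers ran from 948 to 2635 in chow ZT 0 and from 847 to 1208 in chow ZT 20. Under high-fat diet this sum ran from 3537 to 9031 at ZT 0 and from 992 to 2983 at ZT 20. The 2 high-fat groups did not overlap, while the lowest chow ZT 0 library lay inside the chow ZT 20 range. At ZT 20, high-fat replicate 3 stood apart with a summed level of cytosolic ribosomal protein genes of 49406, against 37506 to 41358 in the other 11 libraries, and with the highest sum of markers of other hypothalamic nuclei, 7348 against 2021 to 5732.

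**Figure D1:**
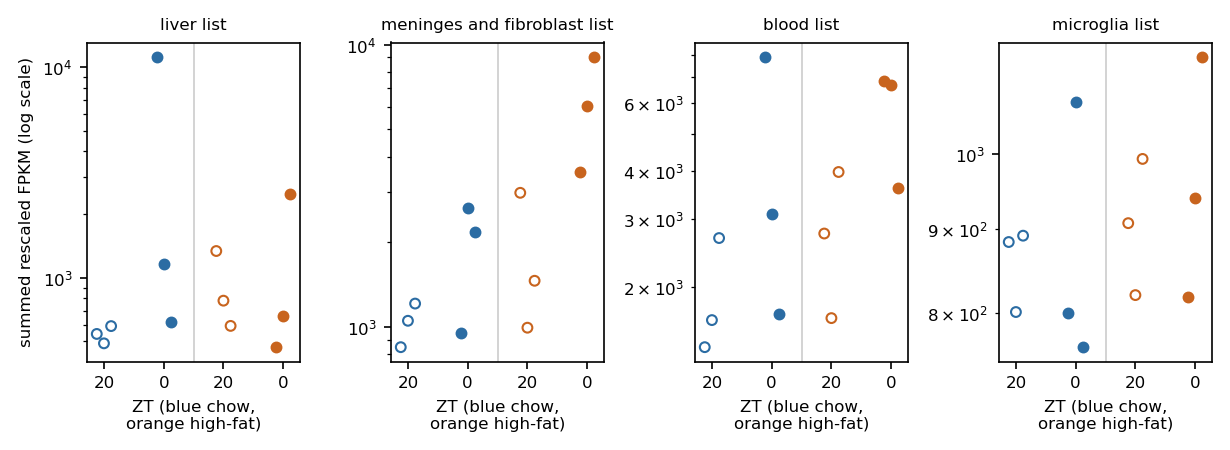
Summed rescaled FPKM of 4 marker lists (log axis) in every library, ZT 20 as open and ZT 0 as filled points, chow in blue and high-fat diet in orange. Chow ZT 0 replicate 1 stands apart for liver at 11180, the high-fat ZT 0 libraries lie above those of ZT 20 for meninges, and microglia sums stay between 763 and 1145 in all 12 libraries.

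Few genes separated the times. Over both diets 6 of 15211 rows were called (0.0394%), 3 higher (0.0197%) and 3 lower (0.0197%) at ZT 0. Tsc22d3, Hif3a and Mfsd2a fell from ZT 20 to ZT 0, and Fabp7, H2-Aa and Lyz2 rose. At an unadjusted p under 0.05 there were 615 higher rows (4.04%) and 222 lower rows (1.46%), beside a median difference over all rows of -0.02. The total of 837 such rows was 2231 without high-fat ZT 20 replicate 3, while 2 rows were then called. Without both liver-rich libraries 2 genes stayed called, Hif3a and Tsc22d3, and no higher one. With the meninges marker score as a covariate, an alternative added after seeing the data, no gene was called by limma. All 15 members of that score were higher at ZT 0. This fit therefore cannot tell time apart from the score, here and for the single genes below.

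Separation without a model was counted as well. In 128 rows (0.841%) every ZT 0 library lay above every ZT 20 library of its own diet, and in 23 rows (0.151%) below. Pooling diets, all 6 ZT 0 libraries lay above all 6 ZT 20 libraries in 33 rows (0.217%) and below in 10 rows (0.0657%). Tsc22d3, Hif3a, Mfsd2a, Prr5, Cables1 and Klf15 were among those 10, and H2-Aa, Fabp7 and Rasl11b among those 33. Separation within a single diet, or between diets at a single time, was not counted over all rows. Where it is given for a gene below, no share stands beside it.

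Tsc22d3 encodes GILZ, a leucine zipper protein that glucocorticoids induce and that mediates part of their anti-inflammatory action. The gene lies at chrX:140539528-140600659 (GRCm38). In chow its level was 90.8, 92.7 and 102 at ZT 0 against 143, 144 and 156 at ZT 20. Under high-fat diet it was 103, 92.7 and 104 at ZT 0 against 142, 133 and 158 at ZT 20. All 6 ZT 0 libraries lay below all 6 of ZT 20, with no overlap in either diet. The means were 97.5 ± 6.07 and 146 ± 9.64 (SD, n = 6 each), and the log2 difference was -0.58 with an SE of 0.0573 (limma adjusted p = 0.00402). The call held without the liver-rich libraries (limma adjusted p = 0.0308) and was lost with the meninges score as a covariate, where the difference was -0.64 (limma adjusted p = 0.226). Over the day the chow means of Tsc22d3 ran 95.1, 108, 118, 173, 146 and 148 from ZT 0 to ZT 20, so that ZT 0 was the lowest and ZT 12 the highest time.

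The promoter of Tsc22d3 is shown because glucocorticoid receptor binding is the textbook route of its induction. Windows of 250 bases before to 50 after a transcript start came from RefSeq (GRCm38.p6), which held one for 31 of the 42 genes named. The half-site of the glucocorticoid receptor, AGAACA, was searched on both strands and occurs in 19.0% of all 32851 windows. One of the 3 Tsc22d3 windows, chrX:140600473-140600772 on the minus strand, held a match, shown in capitals in its reverse complement:
Tsc22d3: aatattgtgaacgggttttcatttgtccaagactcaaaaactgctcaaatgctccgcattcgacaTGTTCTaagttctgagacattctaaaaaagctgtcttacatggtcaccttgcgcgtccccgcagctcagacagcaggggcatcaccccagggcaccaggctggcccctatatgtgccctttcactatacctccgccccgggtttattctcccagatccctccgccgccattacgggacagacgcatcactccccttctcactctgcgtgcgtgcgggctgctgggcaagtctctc
Of the glucocorticoid list, 20 genes had a window and 3 of them held these letters, in 5 of 30 windows, among them 3 windows of Sgk1. The windows of Hif3a, Mfsd2a, Klf15 and Plin4 did not hold them, while those of Tekt4 and Igfbp2 did. Such a match describes the sequence only.

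Hif3a encodes HIF-3α, an oxygen-sensitive relative of HIF-1α whose short forms can dampen the hypoxia response, and lies at chr7:17031507-17062427. Its level in chow was 0.461, 0.581 and 0.739 at ZT 0 against 4.30, 4.08 and 3.71 at ZT 20. Under high-fat diet it was 0.901, 0.545 and 1.09 at ZT 0 against 2.72, 2.83 and 2.58 at ZT 20. The groups did not overlap in either diet, and the ZT 20 levels of the diets did not overlap either, chow being higher. The log2 difference was -1.34 with an SE of 0.137 (limma adjusted p = 0.00402), and -1.36 without the liver-rich libraries (limma adjusted p = 0.0116). With the meninges score as a covariate it was -1.61 and no longer called (limma adjusted p = 0.109). In each diet alone the difference was -1.66 in chow and -1.02 under high-fat diet, and the difference between diets did not pass (limma adjusted p = 0.825).

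Mfsd2a, a lysophosphatidylcholine transporter of brain endothelium that carries docosahexaenoic acid across the blood-brain barrier, also fell. It lies at chr4:122946850-122961188. In chow Mfsd2a was at 24.3, 27.3 and 21.3 at ZT 0 against 32.0, 35.7 and 31.3 at ZT 20, and under high-fat diet at 21.7, 21.5 and 22.4 against 34.1, 34.5 and 37.4. Each ZT 0 library was below each ZT 20 library. The log2 difference was -0.55 with an SE of 0.0725 (limma adjusted p = 0.0228), which corresponds to a level 1.46-fold higher at ZT 20. The direction was unlike that of the endothelial and mural list it belongs to, in which 12 of 20 members were higher at ZT 0 and the median was 0.16. The call of Mfsd2a was lost without the liver-rich libraries at nearly the same size, -0.56 (limma adjusted p = 0.153), and in 10 of the 12 fits that left out 1 library, all but those without chow ZT 0 replicate 2 or chow ZT 20 replicate 3 (limma adjusted p from 0.0143 to 0.114, difference from -0.60 to -0.52).

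**Figure D2:**
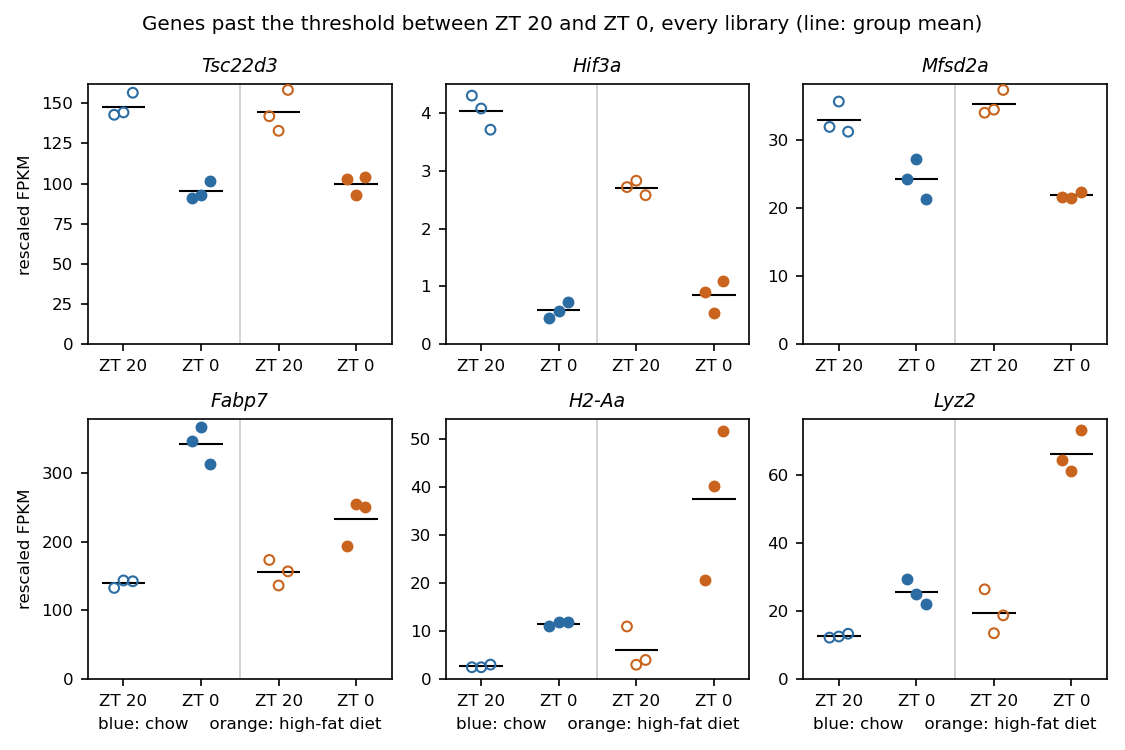
Rescaled FPKM of the 6 called genes in every library, ZT 20 as open and ZT 0 as filled points, chow in blue and high-fat diet in orange, lines for group means. Within each diet the times do not overlap for any of the 6 genes, and Fabp7 is higher in chow ZT 0, at 314 to 367, than in high-fat ZT 0, at 193 to 256.

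Fabp7 encodes the fatty acid binding protein of astrocytes and radial glia, and its mRNA is known to cycle over the day in mouse brain. It lies at chr10:57784881-57788450. In chow Fabp7 was at 348, 367 and 314 at ZT 0 against 133, 144 and 143 at ZT 20. Under high-fat diet it was at 193, 256 and 252 at ZT 0 against 174, 136 and 157 at ZT 20. It was higher at ZT 0 in all comparisons between libraries, with a log2 difference of 0.93 and an SE of 0.131 (limma adjusted p = 0.0334). The chow difference of 1.29 passed in chow alone (limma adjusted p = 0.00265), the high-fat difference of 0.58 did not pass in its diet (limma adjusted p = 0.28), and the difference between diets of -0.71 did not pass over all rows (unadjusted p = 0.0014, limma adjusted p = 0.825). Without the liver-rich libraries Fabp7 was not called, at 0.90 (limma adjusted p = 0.168), nor with the meninges score as a covariate, at 0.95 (limma adjusted p = 0.864). Of the 12 fits without 1 library it was called in 2, those without replicate 1 of either high-fat group. Of 15 astrocyte markers 7 were higher and 8 lower, none was called, and their median was -0.04. The highest of them was Gfap, an intermediate filament protein, at 0.79 (limma adjusted p = 0.371). Fabp7 is counted here among PPAR targets and genes of fatty acid oxidation. Of 34 tested, 1 was called, Fabp7 itself, beside 0.0394% of all rows. The median was 0.09, with 26 higher and 8 lower, the lowest being Plin4 at -0.80.

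Of the 6 called genes H2-Aa, a gene of antigen presentation, had the largest difference. It encodes the alpha chain of the MHC class II molecule I-A, carried by professional antigen-presenting cells, and lies at chr17:34282744-34287823. In chow H2-Aa was at 11.0, 11.9 and 11.8 at ZT 0 against 2.47, 2.47 and 3.02 at ZT 20. Under high-fat diet it was at 20.7, 40.3 and 51.7 at ZT 0 against 11.0, 2.99 and 3.98 at ZT 20. All 6 ZT 0 libraries were above all 6 ZT 20 libraries, though the highest of ZT 20 nearly met the lowest of ZT 0. The log2 difference was 2.17 with an SE of 0.284 (limma adjusted p = 0.0228). The partner chain H2-Ab1 differed by 1.81, the class II invariant chain Cd74 by 1.99 and H2-Eb1 of I-E by 1.69, and none of these passed (limma adjusted p = 0.0814, 0.0814 and 0.0856). Within each diet all 3 were higher in every ZT 0 library than in every ZT 20 library, so the 4 class II genes had the same order of times. These 3 were named for their small p for higher values at ZT 0, so that choice in part set their order. No list of class II genes was preset.

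Under high-fat diet the 3 libraries of each time had the same order in H2-Aa as in the meninges sum, and high-fat ZT 20 replicate 1, the highest of its group in H2-Aa at 11.0, had the highest sum of its group, 2983. In chow the order was shared at ZT 0. At ZT 20 the highest library was the same in both, and the rest were nearly level in H2-Aa, at 2.47. Chow ZT 0 replicate 1 had a meninges sum of 948, below 2 of the chow ZT 20 libraries at 1050.1 and 1208, and H2-Aa at 11.0 against 2.47 to 3.02 in chow ZT 20. With the meninges score as a covariate the difference of H2-Aa was 1.09 (limma adjusted p = 0.699) and that of Cd74 was 0.84 (limma adjusted p = 0.864). Without the liver-rich libraries H2-Aa differed by 2.05 (limma adjusted p = 0.153). Of the 12 fits without 1 library it was called in 5, those without replicate 3 of either chow group, high-fat ZT 0 replicate 1, or high-fat ZT 20 replicate 1 or 2. The part of meningeal or border tissue in these levels was not tested. The microglia list, for the resident macrophages of brain tissue, had a median of 0.06 over 15 markers, 10 higher and 5 lower, with none called.

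The promoters of H2-Aa (chr17:34287774-34288073, minus strand) and H2-Eb1 (chr17:34305617-34305916, plus strand) are shown because class II genes share a regulatory module. The Y box of that module, CTGATTGG, searched on both strands, is in capitals. It occurs in 4.10% of all windows, and both class II windows in the RefSeq table held it.
H2-Aa: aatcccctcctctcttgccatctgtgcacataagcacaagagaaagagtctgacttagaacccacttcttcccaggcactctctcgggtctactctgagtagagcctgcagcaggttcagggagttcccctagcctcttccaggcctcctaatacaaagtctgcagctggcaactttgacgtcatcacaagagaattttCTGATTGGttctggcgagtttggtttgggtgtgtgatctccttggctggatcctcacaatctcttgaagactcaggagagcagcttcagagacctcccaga
H2-Eb1: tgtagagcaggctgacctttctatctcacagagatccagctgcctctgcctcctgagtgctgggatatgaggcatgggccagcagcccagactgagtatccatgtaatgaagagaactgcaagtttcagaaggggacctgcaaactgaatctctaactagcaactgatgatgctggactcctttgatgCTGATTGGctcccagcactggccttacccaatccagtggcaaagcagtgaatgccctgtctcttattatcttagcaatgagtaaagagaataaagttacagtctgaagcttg
The window of Hif3a held the same letters, and Hif3a moved the opposite way.

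Lyz2 encodes lysozyme M, an antibacterial enzyme of macrophages, monocytes and neutrophils, and lies at chr10:117277331-117282321. In chow Lyz2 was at 29.4, 25.0 and 22.2 at ZT 0 against 12.2, 12.5 and 13.4 at ZT 20. Under high-fat diet it was at 64.6, 61.3 and 73.5 at ZT 0 against 26.4, 13.5 and 18.8 at ZT 20. Times separated within each diet but not between diets, since the highest ZT 20 library under high-fat diet lay within the chow ZT 0 range. The log2 difference was 1.35 with an SE of 0.176 (limma adjusted p = 0.0228). It was 1.26 without the liver-rich libraries (limma adjusted p = 0.168) and 0.87 with the meninges score as a covariate (limma adjusted p = 0.864). In the fit of 4 group means Lyz2 was called under high-fat diet (log2 difference 1.76, limma adjusted p = 0.0153). In chow it was not called there (0.95, limma adjusted p = 0.864). The difference between diets was 0.81 and did not pass (limma adjusted p = 0.825). Of the 12 fits without 1 library, 4 called Lyz2, those without replicate 3 of either chow group or high-fat ZT 20 replicate 1 or 2. Of the granulocyte transcripts, Ngp, a neutrophil granule protein, differed by 1.07 and did not pass (limma adjusted p = 0.0883).

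Markers of meninges and blood were higher at ZT 0 in both diets, and those of liver in chow, without passing the threshold. All 15 meninges and fibroblast members were higher at ZT 0 with unadjusted p under 0.05, none was called by limma (smallest adjusted p = 0.135), and the median difference was 1.29, with 0.87 in chow and 1.72 under high-fat diet. The gamma-aminobutyric acid (GABA) transporter gene Slc6a13 had group means of 13.1 and 4.61 in chow and of 40.5 and 8.86 under high-fat diet, at ZT 0 and ZT 20. Dcn, for the matrix proteoglycan decorin, had means of 20.8 and 11.6 in chow and of 50.6 and 15.6 under high-fat diet. Igfbp2, an insulin-like growth factor binding protein also abundant in meninges, differed by 1.80 and did not pass (limma adjusted p = 0.0856). The 9 blood markers tested were all higher at ZT 0, with a median of 0.94. Among 30 liver markers 29 were higher, with a median of 1.46 over both diets, 2.95 in chow and 0.02 under high-fat diet. Without the liver-rich libraries 18 of 28 liver markers tested were higher and their median was 0.05. Over 23 inflammation and interferon genes 20 were higher, with a median of 0.30 and none called, and with the meninges score as a covariate 11 were higher with a median of -0.02. The pan-neuronal list had 1 of 14 members higher and a median of -0.05. Lists of heat shock and cold-inducible genes, endoplasmic reticulum chaperones, lipid synthesis, glycolysis, oxidative phosphorylation, ribosomal proteins, splicing factors, insulin signalling and feeding peptides had medians between -0.05 and 0.02 and no called member.

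**Figure D3:**
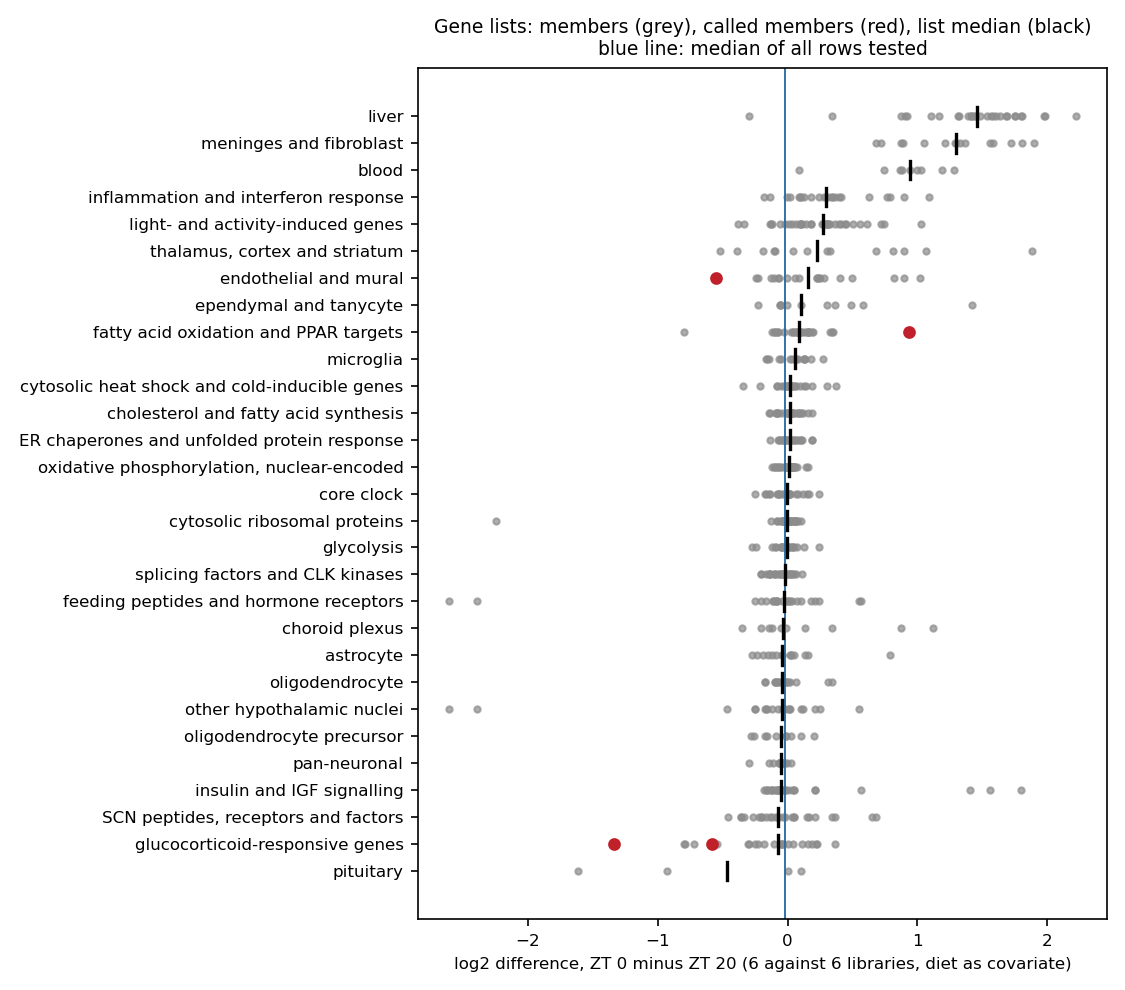
Log2 difference between ZT 0 and ZT 20 for every tested member of 29 gene lists, with called members in red, list medians as black bars and the median of all rows as a blue line. Liver, meninges and blood lists lie to the right, at medians of 1.46, 1.29 and 0.94, the liver median being 0.05 without the 2 liver-rich libraries, and most pathway lists are centred near 0.

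Glucocorticoid-responsive genes held 2 of the 3 lower calls, Tsc22d3 and Hif3a, among 24 of 26 members with values high enough to test. Their median difference was -0.08, 16 were lower and 8 higher, and 9 lower against 2 higher had unadjusted p under 0.05. Over all rows 0.0197% were called lower, and 1.46% were lower and 4.04% higher at that unadjusted p. The highest member was Dusp1, at 0.37 (limma adjusted p = 0.481), which is also counted among the light- and activity-induced genes. The genes that moved least included textbook targets. Fkbp5, a co-chaperone that limits receptor signalling, had means of 21.1 ± 1.24 at ZT 0 and 22.01 ± 2.78 at ZT 20 (SD, n = 6 each), and the metallothionein gene Mt1 differed by -0.05. Sgk1, a kinase of ion transport, was between 13.3 and 22.9 at ZT 0 and between 22.4 and 70.1 at ZT 20. Its ranges overlapped across diets and not within a diet, and its difference of -0.72 did not pass (limma adjusted p = 0.651). Plin4, a lipid droplet coat protein, differed by -0.80 (limma adjusted p = 0.174), with 1.90, 2.32 and 2.83 in chow ZT 0 against 5.49, 5.15 and 5.83 in chow ZT 20. Under high-fat diet Plin4 was 3.05, 2.82 and 5.599 against 4.81, 6.88 and 7.32, and there the high value of ZT 0, in the liver-rich library, lay within the ZT 20 range.

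The remaining named genes with lower values did not pass either. Klf15, a Krüppel-like factor of amino acid and glucose metabolism, differed by only -0.23, yet all 6 of its ZT 0 libraries, from 22.6 to 27.0, lay below all 6 of ZT 20, from 27.7 to 31.0 (limma adjusted p = 0.264). Zbtb16, a zinc finger transcription factor, differed by -0.79 and Hr, a nuclear receptor corepressor, by -0.53 (both limma adjusted p = 0.264). Prr5, a subunit of the mTORC2 kinase complex, differed by -0.39 (limma adjusted p = 0.104). Cables1, a CDK5-binding protein, differed by -0.36 (limma adjusted p = 0.148), and Tekt4, a tektin of cilia, by -0.56 (limma adjusted p = 0.264). Prr5 and Cables1 separated the 6 libraries of each time without overlap, and Tekt4 did so under high-fat diet but not in chow. Cirbp, the cold-inducible RNA-binding protein, had group means of 146 and 180 in chow and of 157 and 171 under high-fat diet, and did not pass (limma adjusted p = 0.264). With the meninges score as a covariate the median of the glucocorticoid list was -0.21, with 11 members lower at unadjusted p under 0.05.

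**Figure D4:**
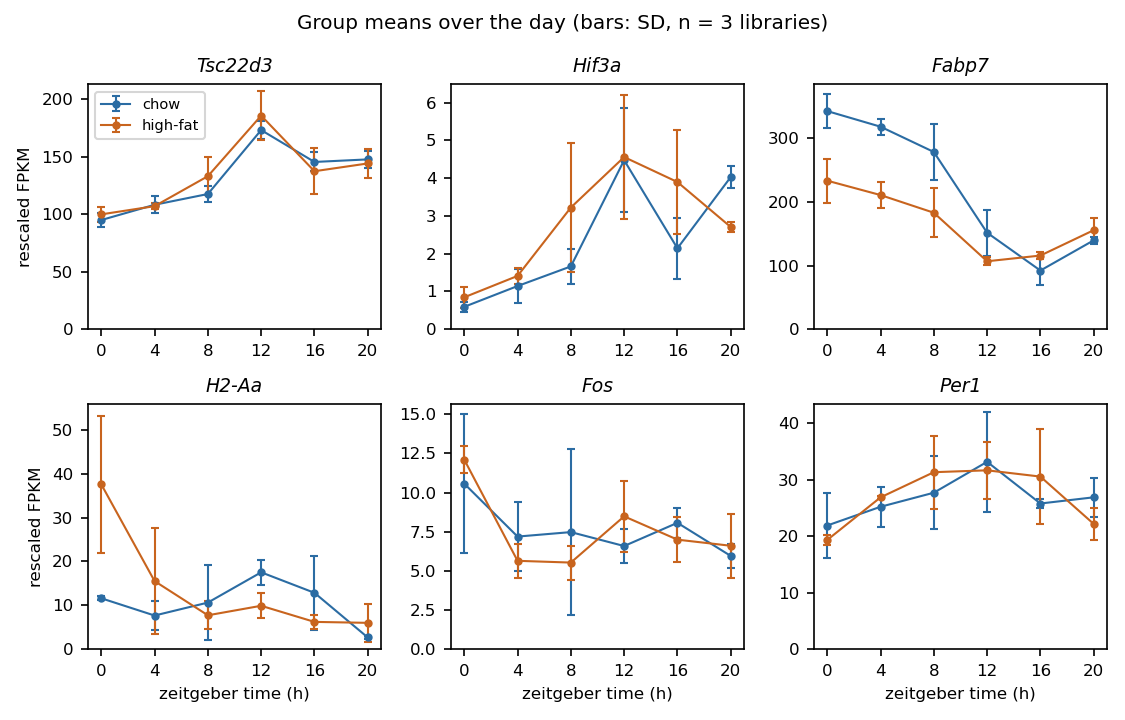
Group means of 6 genes at each zeitgeber time, chow in blue and high-fat diet in orange, bars for the SD of 3 libraries. Tsc22d3 and Hif3a are lowest at ZT 0 and highest at ZT 12, Fabp7 and Fos are highest at ZT 0 in both diets, and H2-Aa is highest at ZT 0 under high-fat diet and at ZT 12 in chow.

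Light- and activity-induced genes were mostly higher at ZT 0 and none was called. Of 37 tested among 38 listed, 30 were higher, 15 of them with unadjusted p under 0.05 against 1 lower, and the median was 0.27. Over all 15211 rows 6565 were higher, and 4.04% were higher and 1.46% lower at that unadjusted p. Fos, a subunit of the AP-1 transcription factor and the standard marker of light responses in the SCN, was at 6.99, 15.5 and 9.19 in chow ZT 0 against 6.76, 5.90 and 5.19 in chow ZT 20. Under high-fat diet it was at 11.4, 13.1 and 11.8 against 5.15, 5.72 and 8.92. Times separated in each diet, narrowly in chow, and the difference of 0.74 did not pass (limma adjusted p = 0.27). Egr1, a zinc finger factor, differed by 0.72 (limma adjusted p = 0.311) and Junb, another AP-1 subunit, by 0.61 (limma adjusted p = 0.326). Dusp1, the MAP kinase phosphatase, was between 15.5 and 15.8 in the 3 high-fat ZT 0 libraries against 10.5 to 10.7 at ZT 20, while in chow its times overlapped. Npas4, a factor specific to neuronal depolarization, had means of 3.36 ± 1.73 and 3.31 ± 0.774 (SD, n = 6 each). Egr3 had the largest difference of the list, 1.03 (limma adjusted p = 0.435), and was named for this after the values were seen.

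The Fos promoter (chr12:85473640-85473939, plus strand) is shown because its cAMP response element is the known route of light and calcium signals through CREB. The core of that element, TGACGT, searched on both strands, is in capitals and occurs in 7.51% of all windows:
Fos: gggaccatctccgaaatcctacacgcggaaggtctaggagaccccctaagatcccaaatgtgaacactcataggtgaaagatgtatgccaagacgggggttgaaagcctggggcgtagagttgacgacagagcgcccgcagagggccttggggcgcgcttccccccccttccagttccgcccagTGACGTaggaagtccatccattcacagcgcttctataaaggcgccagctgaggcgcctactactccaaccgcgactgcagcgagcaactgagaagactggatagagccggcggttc
Of the list's 24 genes with a window, 10 held these letters, and so did H2-Aa. Without the liver-rich libraries the list kept a median of 0.24 with 16 higher and 1 lower at unadjusted p under 0.05. With the meninges score as a covariate the median was 0.03, with 2 higher and 2 lower, while Fos itself differed by 0.64.

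The core clock did not separate the times. None of its 25 genes was called (smallest limma adjusted p = 0.575), 11 were higher and 14 lower, and the median was 0.00. Arntl, which encodes BMAL1 and had the smallest p of the list, was between 19.0 and 23.6 at ZT 0 and between 14.6 and 19.9 at ZT 20, a difference of 0.24. Per1 had means of 20.6 ± 3.98 and 24.5 ± 3.81, and Per2 of 9.94 ± 1.74 and 11.3 ± 1.88 (SD, n = 6 each). Both period genes overlapped between times in each diet. Dbp, a PAR bZIP output factor, was at 44.7 ± 4.86 and 44.0 ± 3.29, and Cry1 at 18.8 ± 0.845 and 18.8 ± 1.39. Nr1d1, for REV-ERBα, differed by 0.12, Nr1d2 by -0.13 and Ciart by -0.07. Without the liver-rich libraries 16 of the 25 were higher, the median was 0.03 and none was called. At unadjusted p under 0.05, 2 were then higher and 0 lower. Arntl differed by 0.30 in that fit, Nr1d1 by 0.17 and Per1 by -0.12 (limma adjusted p = 0.46, 0.655 and 0.99979).

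SCN peptides and receptors varied more between libraries than between times. Of 26, 10 were higher and 16 lower, none was called, and the median was -0.07. At unadjusted p under 0.05, 1 was higher and 2 were lower. Without the liver-rich libraries 13 of the 26 were higher, the median was -0.02 and none was called. At unadjusted p under 0.05, 3 were then higher and 0 lower. Avp had means of 1920.2 ± 1011 at ZT 0 and 1812 ± 1144 at ZT 20, and Vip of 30.3 ± 17.6 and 26.6 ± 10.8 (SD, n = 6 each). Avp differed by 0.96 in chow and by -0.54 under high-fat diet, with wide errors. Prok2, for the secreted clock output prokineticin 2, was at 1.38, 5.95 and 1.76 in chow ZT 0 against 2.22, 2.29 and 2.60 at ZT 20, and under high-fat diet at 4.81, 6.21 and 2.98 against 1.76, 1.24 and 1.13. Its high-fat libraries separated and its chow libraries did not, and its difference between diets of 1.13 did not pass (limma adjusted p = 0.825). How many of all rows separate within a single diet was not counted. Over both diets Prok2 differed by 0.65, and by 0.92 without the liver-rich libraries (limma adjusted p = 0.894 and 0.544).

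Contrasts within each diet gave fewer calls. They came from the fit of 4 group means, whose spread is shared by all 12 libraries. In chow 3 rows were called (0.0197%), Hif3a, Fabp7 and Tsc22d3, and under high-fat diet 2 (0.0131%), Lyz2 and the microRNA row Mir434. The difference between diets called 1 row (0.00657%), Mir434. In fits of 6 libraries per diet, which share no library, limma called 4 rows in chow (3 higher) and 2 under high-fat diet (1 higher). At an unadjusted p under 0.05, chow had 1457 rows, 398 higher and 1059 lower at ZT 0. High-fat diet had 822 such rows, 456 higher and 366 lower. Between the diets, 97 of these rows were shared with the same sign and 4 with opposite signs. The 97 made up 6.66% of the chow rows, where 5.4% of all rows had that p under high-fat diet with either sign. They made up 11.8% of the high-fat rows, where 9.58% of all rows had that p in chow. Of the 1457 chow rows 545 (37.4%) had the same sign under high-fat diet, as had 44.7% of all rows. Across all rows, which are not independent replicates, the log2 differences of the diets had a Pearson r of 0.11 and a Spearman rho of -0.06.

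**Figure D5:**
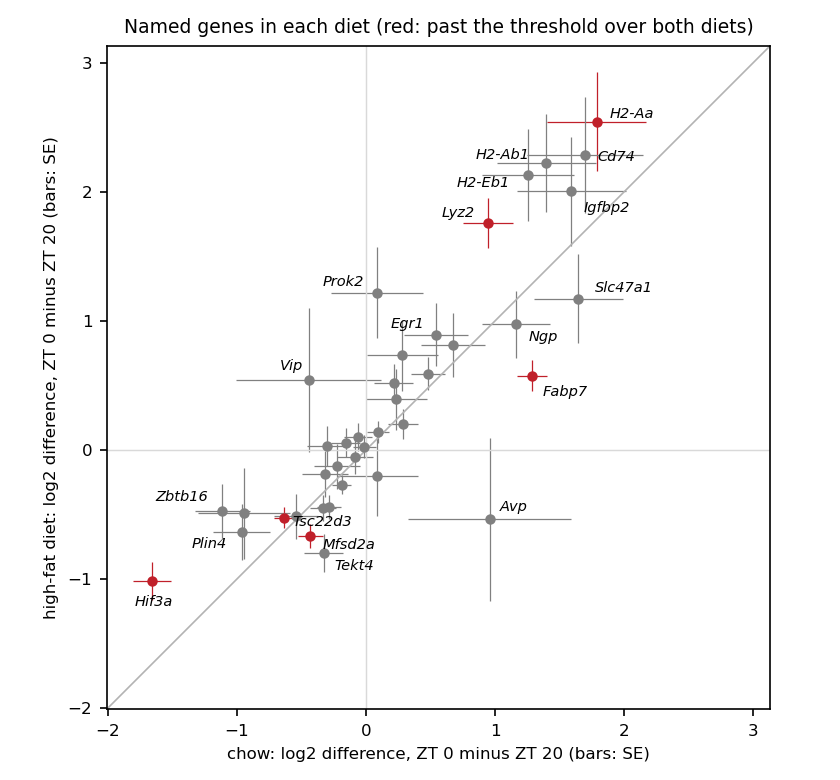
Log2 difference between ZT 0 and ZT 20 in chow (horizontal) and under high-fat diet (vertical) for the named genes, bars for the SE, red for genes called over both diets, with Mir434, Alb and Snord17 left out. The 6 called genes have the same sign in both diets, Fabp7 lies right of the diagonal at 1.29 and 0.58, and Lyz2 above it at 0.95 and 1.76.

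Mir434, a microRNA row of 94 bases at chr12:109594506-109594599, was listed at 0 in all 9 libraries of the other 3 groups and at 1923, 4434 and 2368 in the high-fat ZT 0 libraries. It was also listed above 0 in 3 of the other 24 libraries, at 2577 in chow ZT 8, 2522 in chow ZT 16 and 5835 in high-fat ZT 8. No fold is given against groups listed at 0. Snord17, a small nucleolar RNA row, was higher at ZT 0 in chow, at 6.91, 3.57 and 7.64 against 0, 1.38 and 0, and lower under high-fat diet, at 0, 0 and 3.19 against 3.61, 1.97 and 4.31. Its difference between diets of -3.72 did not pass (limma adjusted p = 0.825).

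Among the 4 h steps around the day, in a fit of all 36 libraries, the step from ZT 20 to ZT 0 called 6 rows, against 52 from ZT 0 to ZT 4, 49 from ZT 4 to ZT 8, 11 from ZT 8 to ZT 12, 8 from ZT 12 to ZT 16 and 0 from ZT 16 to ZT 20. The last step had 593 rows at an unadjusted p under 0.05, and no other tool was run. Without the liver-rich ZT 0 libraries the step into ZT 0 called 3 rows, all lower. The step out of it called 0, with 979 rows at an unadjusted p under 0.05. Chow ZT 4 replicate 1 was kept in these fits. Its Alb was at 335, above the 285 of the left-out high-fat ZT 0 replicate 3. Neighbouring steps share libraries and are not independent.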

How the data were processed

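The deposited tables hold FPKM per gene and library, 1 table per diet with 24883 rows. Trimmomatic, TopHat, Cufflinks and the builds mm10 and GRCm38 are named in the submitters' processing notes; versions, annotation and any further scaling are not given in the sources used here. The column headers give no unit; FPKM was taken from the range of the values, since Cufflinks is named. Per the labels, libraries followed a stranded mRNA protocol and time points are numbers, which the column headers give as ZT. Tables were made per diet, so table and diet cannot be told apart; ZT 0 and ZT 20 stand in each table.

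Values were rescaled to 1000000 per library and log2(value + 1) transformed. Rows with a mean of at least 1 over the 12 libraries (15211) were tested two-sided with limma 3.58.1 (mean-variance trend, R 4.3.3): diet plus time as the main fit, and 4 group means for each diet and the difference between diets. The procedure was also run on simulated data with added effects and independent noise for each row and library. That simulation holds no tissue differences shared by many rows, so it cannot show how the fits behave under them. Of 24346 symbols, 280 stand on several rows and were kept apart. Relative depth compared low values between libraries, and counts of reads are unknown.

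Members and lists (15 pathway, 14 cell type) were chosen with earlier results of these data known. Named are the 10 rows with the largest difference in each direction among those called, places left being filled by smallest p; called list members; preset clock, light, SCN and glucocorticoid genes; the rows with the smallest p for a difference between diets; and Alb. Other list members named (Egr3, Junb, Gfap, Slc6a13, Dcn, Mt1, Cirbp) were chosen after their values were seen. Alternatives left out the liver-rich libraries or 1 library, or changed scaling, pseudocount, filter, spread estimate or covariates (scores from marker lists).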

Additional observations from a re-analysis of the deposited data

Results flagged for a closer look

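The Mir434 row differed between diets in its change from ZT 20 to ZT 0. The fitted difference was 11.4 on the log2(value + 1) scale (limma adjusted p = 3.32e-08), in a row listed at 0 in 9 of the 12 libraries and above 0 in all 3 high-fat ZT 0 libraries. With the spread taken from all 36 libraries it was not called. No other row passed this test of the difference between diets in the 12-library fit.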

How the results depend on the processing

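No result changed direction past the threshold under any of the 23 settings, and none moved the median of all rows by more than 0.1. Over both diets limma called 6 rows. Without the 2 liver-rich ZT 0 libraries it called 2 (0 higher, 2 lower), with a liver score as covariate 2 (0 higher), without a filter on low values 2 (0 higher), and with the spread from all 36 libraries 11 (8 higher), which included all 6. With the meninges score it called 0, and with liver, meninges and forebrain scores 0, with 0 higher and 0 lower each, at 582 and 611 rows with unadjusted p under 0.05. In chow, the 3 rows called became 1 without the liver-rich libraries, 1 at a minimum mean of 5 and 0 with 3 scores. Under high-fat diet the 2 rows became 1 without the liver-rich libraries, 1 with median-of-ratios scaling, 1 with the spread of 36 libraries, 1 with the meninges score, 1 with 3 scores, 6 without the filter and 4 without the mean-variance trend. The difference between diets called 0 with the spread of 36 libraries, with 1 in the main analysis. For the 4 h steps the liver-rich ZT 0 libraries were left out and chow ZT 4 replicate 1 was kept. Only the step from ZT 16 to ZT 20 then kept its count, 0. Those from ZT 20 to ZT 0, ZT 0 to ZT 4 and ZT 4 to ZT 8 called 3, 0 and 66. Those from ZT 8 to ZT 12 and ZT 12 to ZT 16 called 12 and 5.

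Leaving out 1 library at a time gave 2 to 8 calls over both diets, 0 to 6 higher and 2 to 3 lower, with 2 to 3 in chow, 1 to 15 under high-fat diet and 1 to 2 for the difference between diets. The count over both diets was 2 without chow ZT 0 replicate 1, chow ZT 20 replicate 1 or 2, high-fat ZT 0 replicate 2 or high-fat ZT 20 replicate 3, and 3 without chow ZT 0 replicate 2 or high-fat ZT 0 replicate 3. Higher rows were 0 without any of these 7 libraries and 6 without chow ZT 0 replicate 3. The high-fat count was 15 without high-fat ZT 20 replicate 1, 4 without chow ZT 20 replicate 1, and 1 without replicate 3 of high-fat ZT 0 or of high-fat ZT 20. The difference between diets called 2 without chow ZT 0 replicate 2, chow ZT 20 replicate 3, high-fat ZT 0 replicate 1 or 2, or high-fat ZT 20 replicate 1. Tsc22d3 and Hif3a were called in all 12 of these fits, with limma adjusted p up to 0.024; Fabp7 reached 0.145, Mfsd2a 0.114, and Lyz2 and H2-Aa 0.109.

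Same-numbered libraries did not deviate together: 0 of 6 pairs correlated above 0.1 (-0.21 to 0.03), and 1 of 6 libraries correlated best with its own number, so the numbers are not taken as pairs. A replicate block left 1 row called over both diets, Tsc22d3 (0 higher, 1 lower), with 0 in chow and 1 under high-fat diet. Absolute depth is unknown, so no counting error was computed, and values near 0 rest on an unknown number of reads.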
